A study of Rattus norvegicus with 12 samples.

Results

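The genes described here are 10 members of 2 growth-signal systems of the uterus. They are the EGF-family ligands Areg, Ereg, Hbegf and Tgfa, the receptors Egfr, Erbb2 and Erbb3, the cytokine Lif, and its receptor subunits Lifr and Il6st. They were chosen by symbol, and all 10 were found among the 34034 genes of the deposited count table. Of the 10, 8 had enough counts to be tested, among 13909 tested genes in all, while Areg and Ereg did not.

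The counts come from 12 QuantSeq 3′ mRNA libraries of the uterus of female rats aged 8 weeks, with 3 libraries in each of 4 groups and 1000 ng of RNA in each library. EEP tissue came from horns that were scraped with a bent needle and, 2 days later, were given a bioprinted patch that carries cells. CP tissue came from scraped horns given, also 2 days after the injury, a patch of the same printed matrix (Endo-UdECM) without cells. AS tissue was scraped and received no patch, and normal tissue was not injured. The source of the cells in the EEP patch is not given in the sources used here. The needle injury is the series' model of intrauterine adhesion, in which scar tissue joins the uterine walls. The labels call every sample endometrium, whereas the design text speaks of uterine tissues, and it has the opposite horn of an animal serve as internal control or carry the control patch. The labels do not link libraries to animals.

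EGF-family ligands are made as membrane proteins, are cut free by ADAM proteases, and bind receptors of the EGFR and ERBB family, which pair up and switch on the RAS-ERK and PI3K-AKT pathways. LIF binds LIFR, which then pairs with the shared subunit gp130, the product of Il6st, and activates JAK kinases and STAT3. In mice, LIF from uterine glands is needed for the embryo to implant, and HB-EGF is made in the lining around the attaching embryo. In the rodent uterus, EGF-family signals act on epithelial and stromal growth.

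To show the control regions of the member with the smallest p-value and of a member that was close to absent, the 250 bases before the RefSeq start sites of Egfr and Areg are printed below, 5′ to 3′ on the gene's own strand, from the GRCr8 assembly. The Egfr window is chr14:95378376-95378625 on the plus strand and the Areg window is chr14:17265642-17265891 on the minus strand. Capitals mark the motifs found.

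Egfr: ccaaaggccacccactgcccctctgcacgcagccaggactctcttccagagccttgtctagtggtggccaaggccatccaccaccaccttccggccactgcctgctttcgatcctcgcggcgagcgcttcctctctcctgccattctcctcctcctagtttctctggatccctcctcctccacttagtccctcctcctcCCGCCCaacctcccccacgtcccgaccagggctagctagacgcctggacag

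Areg: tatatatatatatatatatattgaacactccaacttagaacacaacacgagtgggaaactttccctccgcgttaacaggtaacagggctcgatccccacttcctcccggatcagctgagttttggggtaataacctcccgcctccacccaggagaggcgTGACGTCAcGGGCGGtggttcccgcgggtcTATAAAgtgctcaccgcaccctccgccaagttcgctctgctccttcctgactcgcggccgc

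Both strands were searched for the STAT site TTCNNNGAA, the AP-1 site TGANTCA, the cAMP-response element TGACGTCA, the GC box GGGCGG and the TATA box TATAAA. The Egfr window held a GC box 51 bases before the start and none of the others. The Areg window held a cAMP-response element at 91 bases, a GC box at 82 bases and a TATA box at 61 bases before the start. Of 33469 RefSeq promoter windows of the same length, 30.5% held a GC box, 12.9% a TATA box and 1.59% a cAMP-response element. The STAT site was in 7.67% and the AP-1 site in 6.34%. None of the marked matches overlaps another. Windows were at hand for 7 of the 10 members, and not for Ereg, Erbb3 and Lif. In the other 5 windows the search found a single GC box each in Tgfa, Erbb2 and Lifr, and no motif in Hbegf and Il6st. A match describes the letters and does not show that a factor binds there.

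Total counts ranged from 4866790 to 8938227 per library. The 37 mitochondrial genes took 18.9% to 76.3% of them in EEP, 64.8% to 82.5% in CP, 68.7% to 75.2% in AS and 44.1% to 56.5% in normal tissue, which left 1202525 to 5832552 counts for nuclear genes. EEP 1 had the lowest mitochondrial share, and normal 2 stood apart from the other normal libraries in Lifr and Erbb4. AS 1 had the highest summed level of smooth-muscle, macrophage, simple-epithelium and erythrocyte markers. Levels are CPM, counts scaled to library size with TMM factors, and 3 counts in a library correspond to 0.177 to 0.867 CPM. Markers of simple epithelium were detected in every group, with all 12 tested and summed levels of 199 to 1477 CPM in EEP, 243 to 1012 in CP, 134 to 2456 in AS and 193 to 644 in normal tissue. The high ends were EEP 1, CP 1 and AS 1, each well above the other libraries of its group, and normal 2 was the lowest normal library. Of 5 uterine gland markers only 2 could be tested, and Prss29 and Spink1 were at 0 in all 4 groups. The 5 summed to 35.3 to 72.2 CPM in EEP, 50.8 to 67.0 in CP, 15.7 to 39.5 in AS and 7.41 to 24.9 in normal tissue. Both tested gland markers had log2 fold changes above 0 for EEP and for CP, against AS and against normal tissue. Neither passed the adjusted edgeR test. In bulk tissue, fewer cells of a type and less RNA per cell cannot be told apart.

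With edgeR's quasi-likelihood test, adjusted over all tested genes, none of the 8 tested members passed a threshold of 0.05 in any of the 6 comparisons of groups. That threshold was passed by 0.0144% of all tested genes for EEP against AS, by 0.00719% each for CP against AS, AS against normal and EEP against normal, and by 0% for EEP against CP and for CP against normal. At an unadjusted p under 0.05, 2 members were found for EEP against AS (Lifr higher, Il6st lower), where 10.1% of all tested genes were. The count was 2 for CP against AS (Lifr higher, Il6st lower; 12% of all genes), 2 for AS against normal (Egfr and Lifr lower; 5.55%) and 2 for EEP against CP (Egfr higher, Tgfa lower; 2.99%). It was 1 for EEP against normal (Il6st lower; 7.56%) and 2 for CP against normal (Egfr and Il6st lower; 12.7%). DESeq2, run as an alternative, called Il6st for EEP against AS and Egfr for CP against normal, and no other member to which it gave an adjusted p. It gave none to Hbegf, Tgfa, Erbb2, Erbb3 and Lif for EEP against AS, or to Lif for CP against AS. Tgfa and Lif for AS against normal, and Tgfa, Erbb2 and Lif for EEP against normal, also had none. EEP against AS and CP against AS share the AS libraries, and the comparisons with normal tissue share the normal libraries, so their values are not independent. The median log2 fold change of the 8 members was 0.29 for EEP against AS, 0.45 for CP against AS, -1.01 for AS against normal, -0.12 for EEP against CP, -0.63 for EEP against normal and -0.14 for CP against normal. Over all tested genes these medians were 0.02, -0.02, 0.03, 0.04, -0.0065 and -0.04, in the same order. The direction of the members' median depended on single libraries and on the fit. It was -0.31 for EEP against AS without EEP 1, -0.18 without EEP 2, -0.50 with the mitochondrial share as a covariate and -0.013 with the replicate number as a block. In CP against AS it was -0.075 without CP 1 and -0.48 without the low-count filter. The medians for AS against normal and for EEP against normal stayed below 0 in all alternatives run, at -1.35 to -0.51 and -0.94 to -0.29, while those for EEP against CP and CP against normal turned in some, to as much as 0.39 without CP 1 and 0.24 without normal 3.

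**Figure D1:**
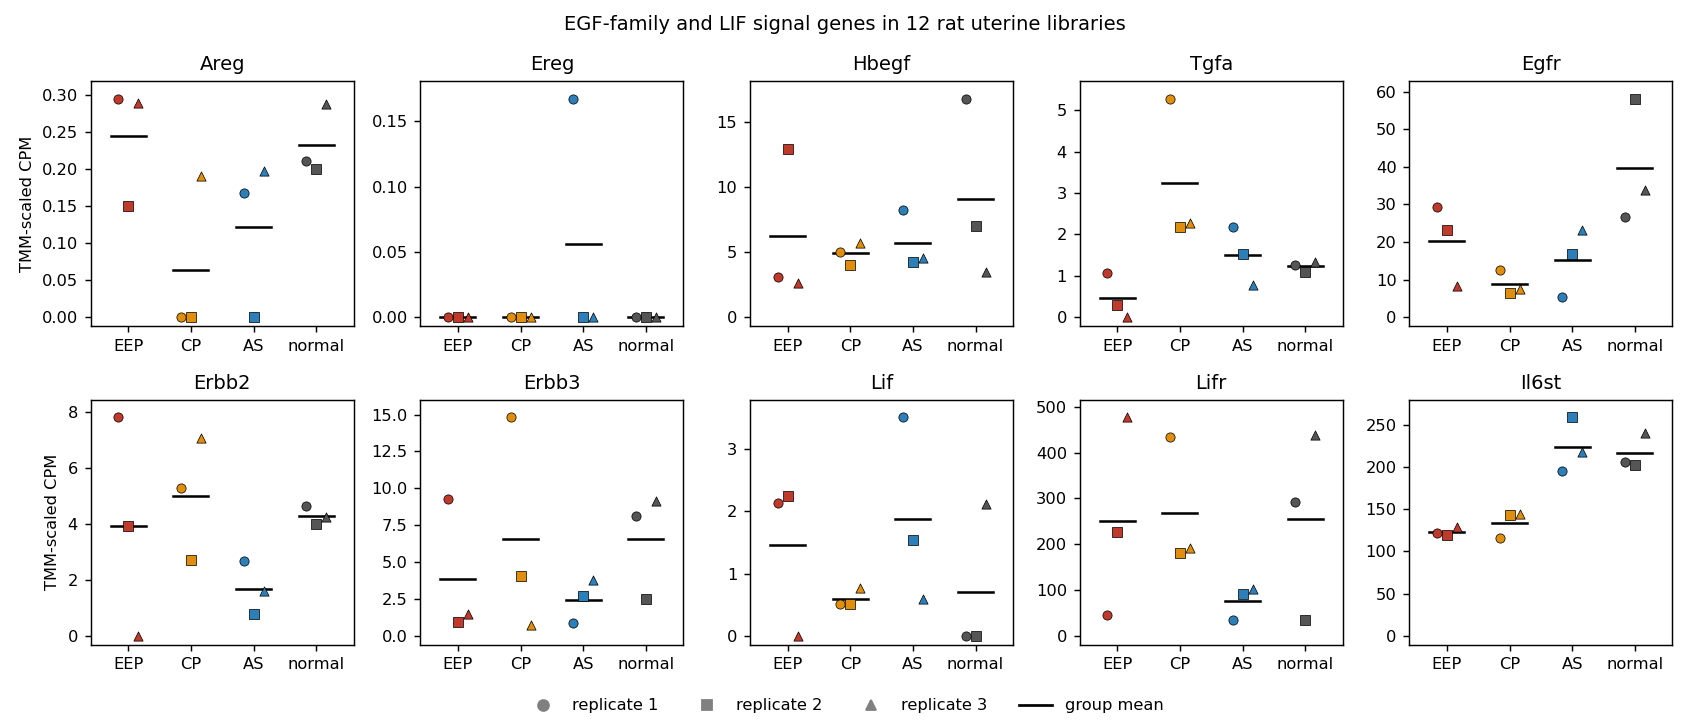
Levels of the 10 members in each library, in TMM-scaled CPM on a linear axis that differs between panels. Points are libraries, shaped by replicate number, and bars are group means of 3 libraries. In the Il6st panel the 6 EEP and CP libraries lie between 116 and 144 CPM, below all 6 AS and normal libraries.

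Of the 4 ligands of the EGF receptor, Areg, Ereg and Tgfa were sparse and Hbegf was not. Areg encodes amphiregulin, a ligand that progesterone induces in the mouse uterus (Entrez 29183, chromosome 14, 16972185 to 16981443 on mRatBN7.2). It had 17 counts in all, with 5, 1 and 1 counts in EEP 1, 2 and 3, 0, 0 and 1 in CP, 1, 0 and 1 in AS, and 2, 2 and 3 in normal tissue. Every group had at least 1 library with a count, and no library had more than 5. Ereg encodes epiregulin, another EGF receptor ligand (Entrez 59325, chromosome 14, 17027287 to 17041062). It had a single count, in AS 1, and 0 in the other 11 libraries. At this depth no difference between groups was detectable for these 2 genes.

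Hbegf encodes HB-EGF, a heparin-binding ligand of EGFR and ERBB4 (Entrez 25433, chromosome 18, 28106284 to 28116167). It measured 3.07, 12.9 and 2.60 CPM in EEP 1, 2 and 3, 5.03, 4.03 and 5.71 CPM in CP, 8.20, 4.22 and 4.55 CPM in AS, and 16.8, 7.01 and 3.45 CPM in normal tissue. EEP 2 and normal 1 were the high libraries, and no pair of groups was free of overlap. The log2 fold changes ran from -0.88 for CP against normal (SE 0.718, edgeR unadjusted p = 0.237, adjusted p = 0.633) to 0.34 for EEP against CP (SE 0.72, adjusted p = 0.9997). Without EEP 2 the value for EEP against AS was -0.98, against 0.13 with all libraries.

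Tgfa encodes TGF-alpha, which binds EGFR (Entrez 24827, chromosome 4, 118618043 to 118700897). It had 18, 2 and 0 counts in EEP 1, 2 and 3, 21, 13 and 12 in CP, 13, 8 and 4 in AS, and 12, 11 and 14 in normal tissue. As levels these were 1.06, 0.30 and 0 CPM in EEP, 5.28, 2.18 and 2.28 CPM in CP, 2.18, 1.53 and 0.791 CPM in AS, and 1.27, 1.10 and 1.34 CPM in normal tissue. Every EEP library was below every CP and every normal library, and every CP library was above every AS and every normal library. The gap between CP and AS was narrow, at 2.182 CPM in CP 2 and 2.177 in AS 1, with 13 counts each. EEP and normal tissue were also close, at 1.064 CPM in EEP 1 and 1.101 in normal 2. For EEP against CP the log2 fold change was -2.62 (SE 1.17, edgeR unadjusted p = 0.04, adjusted p = 0.9997), where 3.07% of all tested genes were lower without overlap. Across single libraries left out it lay between -4.07 and -2.08. For CP against AS it was 1.09 (SE 1.12, unadjusted p = 0.342, edgeR), where 8.73% of genes were higher without overlap. Against normal tissue, the log2 fold change of Tgfa was -1.24 in EEP (SE 1.13, unadjusted p = 0.289, edgeR), where 8.44% of genes were lower without overlap. It was -2.70 without EEP 1 and -0.76 without EEP 3. In CP it was 1.38 against normal tissue (SE 1.11, unadjusted p = 0.235, edgeR), where 13.1% of genes were higher without overlap, and 0.87 without CP 1. The CP against AS value was 0.60 without CP 1.

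Of the 7 other EGF-family ligands, Nrg1 and Nrg2 could be tested, and neither passed the test in any comparison. Epgn and Nrg3 were at 0 in all libraries. Nrg1 encodes neuregulin 1, a ligand of ERBB3 and ERBB4. Its log2 fold change was 1.55 for EEP against AS, with an SE of 0.988, and 1.43 for CP against AS, with an SE of 0.987. For AS against normal it was -0.83, with an SE of 0.974, and the groups overlapped in each comparison. Of 7 genes involved in ligand shedding, ADAM genes together with Rhbdf1 and Rhbdf2, all were tested and none passed. The one with the smallest p for EEP against AS was Adam8, a metalloprotease of immune cells, at 3.13 (SE 1.64, unadjusted p = 0.0732, edgeR), with overlapping groups.

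Among the receptors, Egfr carried the smallest p-value of the members. It encodes the receptor tyrosine kinase that binds EGF, TGF-alpha, amphiregulin and HB-EGF (Entrez 24329, chromosome 14, 91176979 to 91349722). It measured 29.4, 23.1 and 8.38 CPM in EEP 1, 2 and 3, 12.6, 6.38 and 7.42 CPM in CP, 5.36, 16.9 and 23.3 CPM in AS, and 26.7, 58.2 and 33.9 CPM in normal tissue. All CP and all AS libraries lay below all normal libraries, while EEP 1 lay above normal 1. The group means were 20.3 ± 10.8 CPM in EEP, 8.79 ± 3.31 in CP, 15.2 ± 9.10 in AS and 39.6 ± 16.5 in normal tissue (SD, n = 3). Normal tissue was thus highest, then EEP, AS and CP, and the ranges of EEP, AS and CP overlap. For CP against normal the log2 fold change was -2.18 (SE 0.571, edgeR unadjusted p = 0.00146, adjusted p = 0.194), and 14.8% of all tested genes were lower without overlap in this comparison. DESeq2 gave an adjusted p of 0.0221 for it, a fit of CP and normal libraries alone 0.0151, and an edgeR fit without the low-count filter 0.00141. Its adjusted p-values over every alternative lay between 0.00141 and 0.829, the highest reached when the mitochondrial share entered as a covariate. For AS against normal the log2 fold change was -1.38 (SE 0.552, edgeR unadjusted p = 0.023, adjusted p = 0.846), where 8.26% of genes were lower without overlap. For EEP against normal it was -0.95 (SE 0.543, unadjusted p = 0.0998, edgeR), and for EEP against CP 1.23 (SE 0.560, unadjusted p = 0.0426, adjusted p = 0.9997). In the test for any difference among the 4 groups, Egfr had an adjusted p of 0.345 in edgeR, a test that 0.0359% of genes passed. Egfr and Il6st were below an unadjusted p of 0.05 in that test, as were 10.5% of all genes. CP and AS tissue also had more mitochondrial RNA than normal tissue, in every library, and the part of this in the Egfr values was not tested beyond that covariate, with which the CP against normal value was -1.74.

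Erbb2 encodes the receptor that binds no ligand of its own and pairs with the other ERBB receptors (Entrez 24337, chromosome 10, 83411197 to 83435078). It measured 7.80, 3.90 and 0 CPM in EEP, 5.28, 2.69 and 7.04 CPM in CP, 2.68, 0.767 and 1.58 CPM in AS, and 4.64, 4.004 and 4.22 CPM in normal tissue. All CP libraries were above all AS libraries, by a narrow gap, where 8.73% of all tested genes were higher without overlap. All AS libraries were below all normal libraries, where 8.26% of genes were lower without overlap. The EEP libraries ran from 0 counts in EEP 3 to 132 in EEP 1. The log2 fold change was 1.56 for CP against AS (SE 0.998, unadjusted p = 0.137, edgeR) and -1.34 for AS against normal (SE 0.986, unadjusted p = 0.193), so neither passed. For EEP against AS it was 1.25 (SE 0.984), and 0.28 without EEP 1.

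Erbb3 encodes a receptor with little kinase activity that binds neuregulins and pairs with ERBB2 (Entrez 29496, chromosome 7, 994549 to 1015876). It measured 9.28, 0.901 and 1.45 CPM in EEP, 14.8, 4.03 and 0.761 CPM in CP, 0.837, 2.69 and 3.76 CPM in AS, and 8.12, 2.50 and 9.11 CPM in normal tissue. Within CP the high library was 19.5 times the low one, and within EEP 10.3 times, and all groups overlapped. These high libraries, CP 1 and EEP 1, also had the highest summed simple-epithelium markers of their groups, and normal 2 was the lowest normal library in both. AS 1, the highest library for those markers, had the lowest Erbb3 level of AS. The part of epithelium in the Erbb3 values was not tested. The log2 fold change for AS against normal was -1.44 (SE 1.02, unadjusted p = 0.178, edgeR).

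The remaining receptor of the family, Erbb4, is no member but completes the set. It had 96, 0 and 4 counts in EEP 1, 2 and 3, 4, 7 and 0 in CP, 1, 0 and 0 in AS, and 207, 3 and 255 in normal tissue. The high libraries were thus normal 1, normal 3 and EEP 1. The AS level over the normal level, from pooled counts, was 0.00396, with a 95% counting interval of 1e-04 to 0.0222 that covers counting error only. The edgeR adjusted p for AS against normal was 0.539, and DESeq2 gave 0.101.

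**Figure D2:**
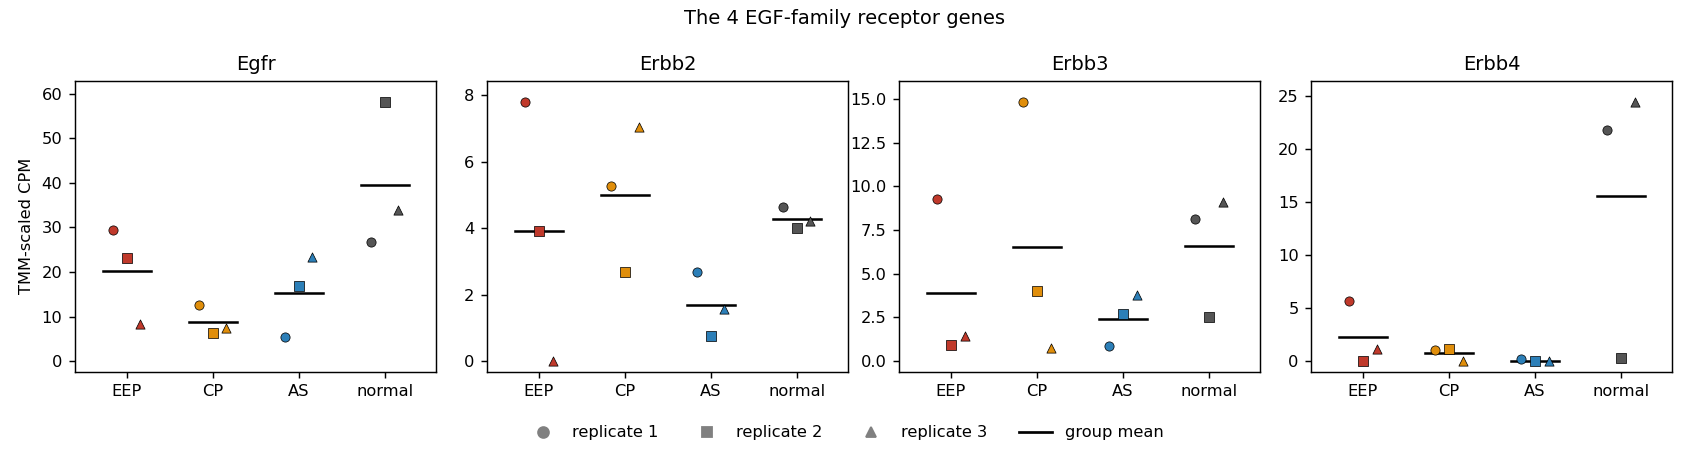
Levels of the 4 EGF-family receptor genes in each library, in TMM-scaled CPM on linear axes that differ between panels. Points are libraries and bars are means of 3 libraries. Egfr in CP and AS lies below every normal library, and Erbb4 is high in normal 1 and normal 3 but not in normal 2.

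Downstream of these receptors, 14 of 14 relay genes were tested, and none passed in any comparison with edgeR. For EEP against AS 8 were higher and 6 lower, with a median log2 fold change of 0.07 against 0.02 over all genes. For CP against AS 7 were higher and 7 lower, with a median of -0.04 against -0.02. Akt1, the kinase that acts after PI3K, had a log2 fold change of -1.56 for CP against AS (SE 0.477, edgeR adjusted p = 0.294), with no overlap. In that comparison 9.22% of all tested genes were lower and 8.73% higher without overlap. Mapk3, the kinase ERK1, had 0.93 in the same comparison (SE 0.353, adjusted p = 0.335) and 1.35 for CP against normal (SE 0.356, adjusted p = 0.194, DESeq2 adjusted p = 0.017), with no overlap in either. In CP against normal, 13.1% of all tested genes were higher without overlap. Hras, a RAS protein, had 1.33 for AS against normal (SE 0.508, adjusted p = 0.811).

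The 13 feedback inhibitors of EGF-receptor signalling were all tested and none passed. For AS against normal, 11 of 13 had log2 fold changes below 0, 5 of them without overlap, where 8.26% of all tested genes were lower without overlap. Their median log2 fold change was -0.35, against 0.03 over all genes. Spry1, a Sprouty protein that restrains RAS-ERK signalling, had 113, 6 and 39 counts in EEP, 26, 35 and 28 in CP, 1, 21 and 5 in AS, and 88, 65 and 134 in normal tissue. All AS libraries were below all normal libraries (log2 fold change -2.47, SE 0.917, edgeR adjusted p = 0.811). Dusp4 and Dusp5, phosphatases that switch off MAP kinases, were at -2.24 (SE 1.10) and -2.64 (SE 1.28) on the log2 scale for AS against normal, without overlap of the groups and without passing the test. Spry4 was lower in every EEP library than in every CP library, at -2.19 (SE 0.942, adjusted p = 0.9997), and than in every normal library, at -2.40 (SE 0.940, adjusted p = 0.603). The shares of all tested genes lower without overlap were 3.07% for EEP against CP and 8.44% for EEP against normal.

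Of 10 early target genes of growth signals, 9 were tested and none passed with edgeR. For AS against normal 4 were higher and 5 lower, with a median log2 fold change of -0.23 against 0.03 over all genes. For CP against normal 5 were higher and 4 lower, with a median of 0.13 against -0.04. For EEP against normal it was also 5 and 4, with a median of 0.30 against -0.0065. Fos, a subunit of the AP-1 factor, measured 37.4, 26.3 and 7.80 CPM in EEP, 43.5, 43.98 and 19.98 CPM in CP, 32.99, 17.3 and 38.7 CPM in AS, and 5.48, 12.8 and 10.3 CPM in normal tissue. All CP and AS libraries, and 2 of 3 EEP libraries, were above all normal libraries. The log2 fold change was 1.91 for CP against normal (SE 0.541, edgeR adjusted p = 0.208, DESeq2 adjusted p = 0.037) and 1.64 for AS against normal (SE 0.537, adjusted p = 0.724). Higher without overlap were 13.1% of all tested genes for CP against normal, and 906 of 13909 for AS against normal.

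**Figure D3:**
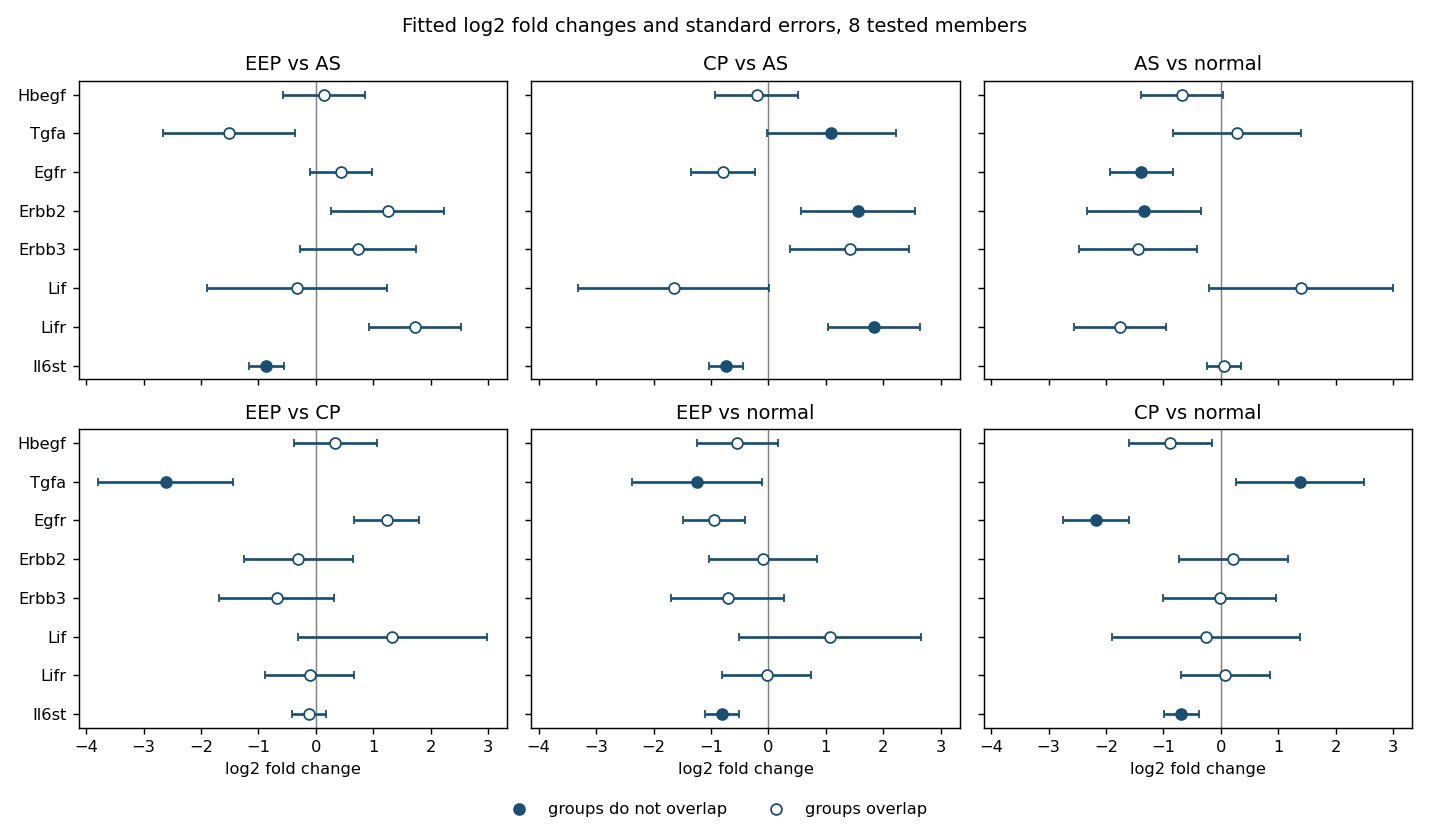
Fitted log2 fold changes of the 8 tested members in the 6 comparisons, with bars of 1 standard error from the edgeR fit. Filled points mark comparisons in which no library of one group lies within the range of the other. Il6st is filled in the 4 comparisons that set a patch group against AS or normal. Tgfa is filled for CP against AS, EEP against CP, EEP against normal and CP against normal. Egfr is filled for AS and CP against normal, Erbb2 for CP against AS and AS against normal, and Lifr for CP against AS. No point passed the adjusted test.

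On the LIF side, Lif itself encodes the cytokine (Entrez 60584, chromosome 14, 79131049 to 79140486). It had 36, 15 and 0 counts in EEP 1, 2 and 3, 2, 3 and 4 in CP, 21, 8 and 3 in AS, and 0, 0 and 22 in normal tissue. As levels these were 2.13, 2.25 and 0 CPM in EEP, 0.503, 0.504 and 0.761 CPM in CP, 3.52, 1.53 and 0.593 CPM in AS, and 0, 0 and 2.11 CPM in normal tissue. Each of EEP and normal tissue thus held libraries at 0 beside libraries above 2 CPM, and no groups were free of overlap. The log2 fold change for AS against normal was 1.396 with an SE of 1.601, and for EEP against CP 1.33 with an SE of 1.65. The AS against normal value was 6.75 without normal 3 and 0.57 without AS 1. For CP against normal, the value of -0.25 (SE 1.64) turned to 5.10 without normal 3, the only normal library with Lif counts.

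Lifr encodes the LIF-binding subunit (Entrez 81680, chromosome 2, 56224393 to 56292988). It measured 44.9, 227 and 477 CPM in EEP 1, 2 and 3, 434, 182 and 191 CPM in CP, 33.3, 91.3 and 102 CPM in AS, and 292, 33.7 and 438 CPM in normal tissue. All CP libraries were above all AS libraries, where 8.73% of all tested genes were higher without overlap. EEP 1 and normal 2 lay within the AS range. The group means were 250 ± 217 CPM in EEP, 269 ± 143 in CP, 75.5 ± 36.9 in AS and 255 ± 205 in normal tissue (SD, n = 3), so the means of EEP, CP and normal differed by far less than the spread within each. For CP against AS the log2 fold change was 1.83 (SE 0.802, edgeR unadjusted p = 0.0359, adjusted p = 0.383). For EEP against AS it was 1.72 (SE 0.799, unadjusted p = 0.0461, adjusted p = 0.483), and 0.89 without EEP 3. For AS against normal it was -1.75 (SE 0.800, unadjusted p = 0.0429, adjusted p = 0.888), -1.11 without normal 3 and -2.28 without normal 2. In an edgeR fit without the low-count filter these 3 passed, with adjusted p of 0.00884, 0.0217 and 0.00975, and in no other alternative.

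Il6st encodes gp130, the subunit that all receptors of the IL-6 family share (Entrez 25205, chromosome 2, 44065979 to 44106255), and within no group did its libraries differ by more than 1.33 times. It measured 122, 120 and 129 CPM in EEP 1, 2 and 3, 116, 143 and 144 CPM in CP, 195, 260 and 219 CPM in AS, and 206, 203 and 240 CPM in normal tissue. All 6 libraries that received a patch lay below all 6 that did not, a separation that 1.29% of all tested genes show in this direction. The means were 123.5 ± 4.79 CPM in EEP, 134 ± 15.8 in CP, 224 ± 32.6 in AS and 217 ± 20.6 in normal tissue (SD, n = 3).

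For EEP against AS the log2 fold change of Il6st was -0.86 (SE 0.302, edgeR unadjusted p = 0.0112, adjusted p = 0.390), with DESeq2 at an adjusted p of 0.0329, and 7.05% of genes were lower without overlap. Across single libraries left out it lay between -0.90 and -0.70, while adjusted p-values over every alternative lay between 0.0329 and 0.857, the highest in a fit of EEP and AS libraries alone. For CP against AS it was -0.74 (SE 0.301, edgeR unadjusted p = 0.0256, adjusted p = 0.356), with 9.22% of genes lower without overlap. Against normal tissue it was -0.81 for EEP (SE 0.301, unadjusted p = 0.0158, adjusted p = 0.573) and -0.69 for CP (SE 0.301, unadjusted p = 0.0358, adjusted p = 0.358). For EEP against CP it was -0.12 (SE 0.30) and for AS against normal 0.05 (SE 0.299). Lower than normal tissue without overlap were 8.44% of all tested genes in EEP and 14.8% in CP. In the test for any difference among the 4 groups, Il6st had an adjusted p of 0.391 in edgeR and 0.0327 in DESeq2.

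The summed level of 9 smooth-muscle markers, none of them at 0, was 1448 to 3303 CPM in EEP, 2471 to 3649 in CP, 5107 to 10553 in AS and 4466 to 5074 in normal tissue, so it also separated the patch libraries from the others. Fitted log2 fold changes of all 9 were below 0 for EEP against AS, 7 of them without overlap, where 7.05% of all tested genes were lower without overlap. All 9 were below 0 for CP against AS as well, 8 without overlap, where 9.22% of all genes were. None of the 9 passed the adjusted edgeR test in either comparison. The summed level of 8 stroma markers was 2477 to 7357 CPM in EEP, 3428 to 5147 in CP, 5243 to 7531 in AS and 6523 to 8838 in normal tissue, so EEP 1 lay within the range of AS and of normal tissue, and no stroma marker passed the test in any comparison. The 8 markers of stratified epithelium summed to 103 to 143 CPM in EEP, 8.29 to 49.1 in CP, 0.767 to 17.2 in AS and 1.80 to 5.47 in normal tissue, so CP 1 lay below AS 1, with Krt5 and Tp63 at 0 in AS and Krt13, Tp63 and Dsg3 at 0 in normal tissue. Of these 8 stratified markers, 6 were tested. For EEP against AS 1 of the 6 passed the adjusted edgeR test as higher, as did 2 of all 13909 tested genes. For EEP against normal 1 passed as higher, the only gene called there, and that call was lost under the stricter filter. Higher without overlap were 4 of the 6 for EEP against AS and 6 for EEP against normal, beside 859 and 854 of all 13909 genes. The part of these marker sums in the Il6st values was not tested. When the mitochondrial share entered as a covariate, the Il6st value for EEP against AS was -0.87.

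**Figure D4:**
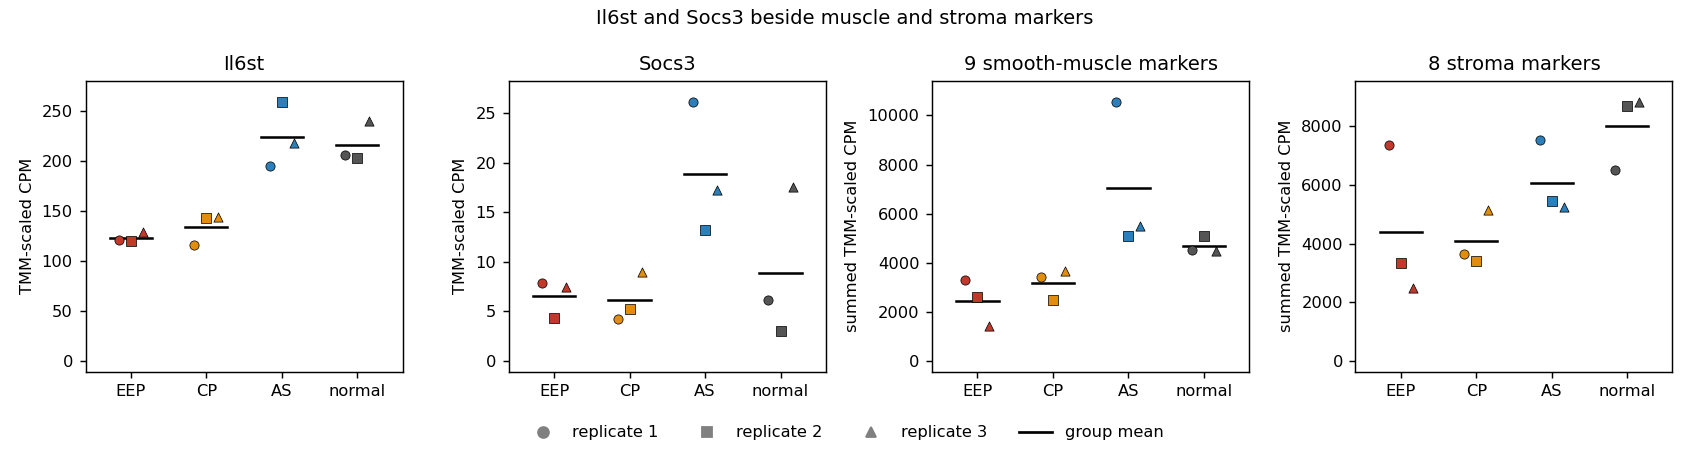
Il6st, Socs3 and the summed levels of 9 smooth-muscle and 8 stroma markers in each library, in TMM-scaled CPM on linear axes. Points are libraries and bars are means of 3 libraries. The patch libraries are the lower 6 for Il6st and for the smooth-muscle sum.

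Socs3, which STAT3 induces and which binds gp130 to shut the signal off, measured 7.86, 4.35 and 7.51 CPM in EEP, 4.27, 5.20 and 8.94 CPM in CP, 26.1, 13.2 and 17.2 CPM in AS, and 6.12, 3.00 and 17.6 CPM in normal tissue. All EEP and all CP libraries were below all AS libraries. The log2 fold change was -1.52 for EEP against AS (SE 0.609, edgeR adjusted p = 0.411) and -1.61 for CP against AS (SE 0.614, adjusted p = 0.335), so it did not pass in either. In these comparisons 7.05% and 9.22% of all tested genes were lower without overlap. Of 10 STAT3 feedback and target genes, 9 were tested. For EEP against AS 7 were lower and 2 higher, with a median of -0.41, and for CP against AS also 7 and 2, with a median of -0.41, against 0.02 and -0.02 over all genes. Bcl3, a nuclear partner of NF-kappaB, had -0.81 for EEP against AS (SE 0.638) and -1.09 for CP against AS (SE 0.648), with overlapping groups.

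The 8 JAK-STAT relay genes were tested and none passed. Stat5a, a STAT factor of prolactin and cytokine signalling, had a log2 fold change of -0.96 for EEP against AS (SE 0.454, edgeR adjusted p = 0.490), with no overlap, and Tyk2, a JAK kinase, 1.55 for CP against AS (SE 0.559, adjusted p = 0.318), with no overlap. Without overlap, 7.05% of all tested genes were lower for EEP against AS and 8.73% higher for CP against AS. Of 4 other receptors of the IL-6 family, 3 were tested. Osmr, the oncostatin M subunit that pairs with gp130, averaged 3.23 ± 1.59 CPM in EEP, 3.45 ± 1.30 in CP, 7.002 ± 0.433 in AS and 3.57 ± 1.73 in normal tissue (SD, n = 3). Every AS library was above every library of the other groups for Osmr, and the log2 fold changes were -1.08 for EEP against AS (SE 0.678), -1.01 for CP against AS (SE 0.682) and 0.97 for AS against normal (SE 0.673), none of which passed. Lower than AS without overlap were 7.05% of all tested genes in EEP and 9.22% in CP. For AS against normal, 906 of 13909 tested genes were higher without overlap. Of 8 other IL-6-family ligands 3 were tested, and Il6 and Ctf2 were at 0 in all libraries.

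Of 14 genes of the uterine implantation circuit, in which progesterone, oestrogen and hedgehog signals act beside LIF and HB-EGF, all were tested and none passed with edgeR. For AS against normal 11 were lower and 3 higher, with a median log2 fold change of -0.31 against 0.03 over all genes. Ptch1, the hedgehog receptor, measured 8.57, 18.8 and 12.7 CPM in EEP, 1.76, 9.40 and 3.23 CPM in CP, 1.51, 6.52 and 4.94 CPM in AS, and 8.96, 65.1 and 20.4 CPM in normal tissue. All AS libraries were below all EEP and all normal libraries. The log2 fold change was -2.87 for AS against normal (SE 0.766, edgeR adjusted p = 0.590, DESeq2 adjusted p = 0.0421), -1.77 without normal 2, and 1.63 for EEP against AS (SE 0.744, adjusted p = 0.479). Without overlap, 8.26% of all tested genes were lower for AS against normal, and 859 of 13909 were higher for EEP against AS. Hand2, in mice a progesterone-induced factor of the stroma, had 1.77 for EEP against AS (SE 0.738, adjusted p = 0.428), and Esr1, the oestrogen receptor, -0.92 for CP against normal (SE 0.359, adjusted p = 0.30).

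**Figure D5:**
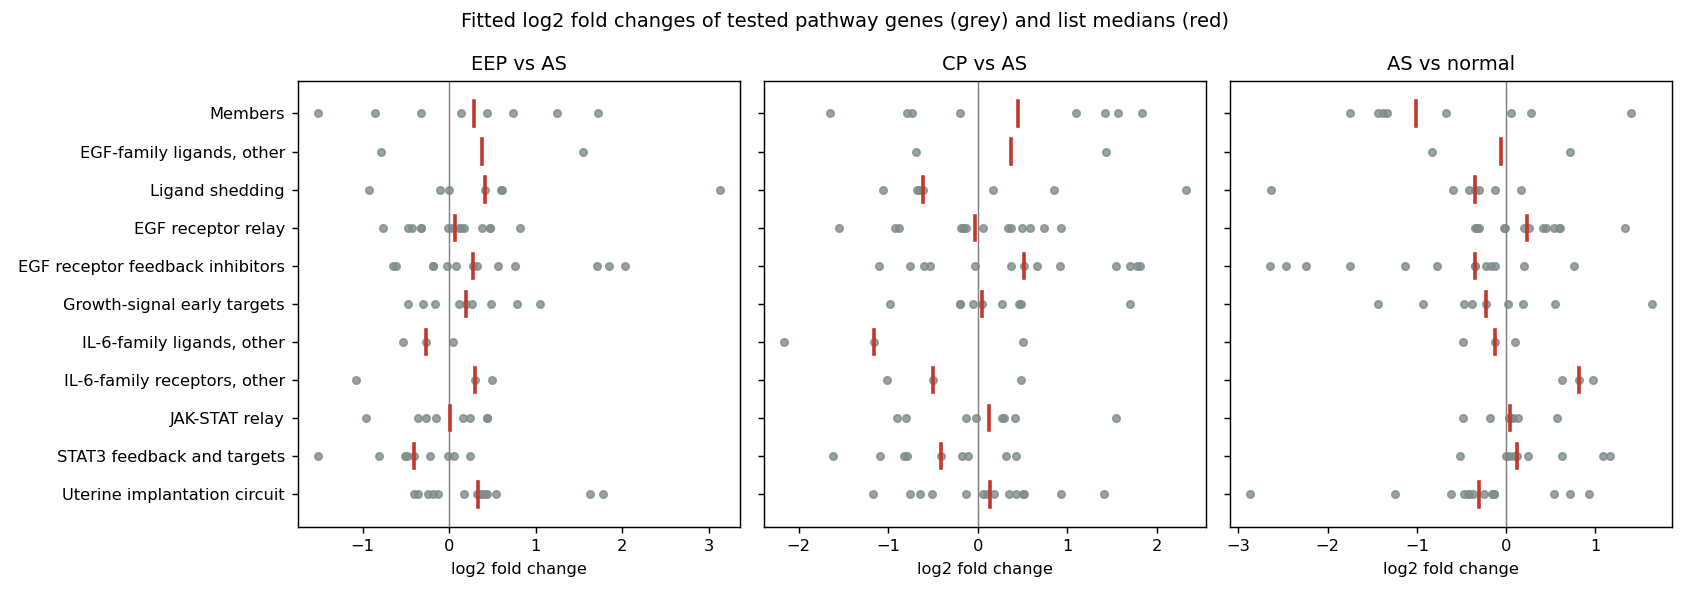
Fitted log2 fold changes of the tested genes of each pathway list (grey points) with the list median (red bar), for EEP against AS, CP against AS and AS against normal. The median of the STAT3 feedback and target genes lies at -0.41 for EEP against AS and for CP against AS.

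The genes most alike to a member in pattern over the 12 libraries were sought among 9057 tested genes with a mean of at least 5 CPM. The measure was Pearson's r of log2(CPM + 1), given as a description, with no test. The points are the same 12 libraries for every gene, which differ in depth and in their marker levels. For Il6st they were Ednra (r = 0.922), an endothelin receptor of smooth muscle, Htt (0.892) and Kank2 (0.884). For Egfr they were Bpnt2 (0.963), Creb5 (0.932) and Eif4g3 (0.911), and for Lifr Kdm3a (0.909), Igfbp5 (0.908) and Trim63 (0.888). For Tgfa they were Atp6v1h (0.904), Ano6 (0.894) and Mapk9 (0.885), for Erbb2 Ackr3 (0.876), Ormdl1 (0.860) and Golm1 (0.842), and for Erbb3 Stradb (0.930), Ldlrad4 (0.903) and Txnip (0.897). For Lif they were Ercc3 (0.922), Tnfrsf1b (0.829) and Chid1 (0.823), and for Hbegf, which had the weakest likeness, Atad5 (0.751), Rngtt (0.723) and Ccdc65 (0.705). Among the members themselves, r was -0.31 for Lif and Lifr, -0.26 for Lifr and Il6st and 0.49 for Tgfa and Erbb2.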

How the data were processed

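The data are QuantSeq 3′ mRNA counts of 12 rat libraries in 4 groups of 3, grouped by the sample titles. The authors deposited a table of raw counts per gene, whole numbers that were used for all tests. The authors' deposited log2 columns match log2(TMM-scaled CPM + 1) computed here to within 0.0335. Single-end reads of 75 bp were aligned with Bowtie2, per the submitters' processing notes, which also name bedtools, with versions not given in the sources used here. The series' design text names edgeR. The information sheet names the rat build mRatBN7.2, and the submitters' processing notes name the mouse build mm10. The table has rat symbols and rat sequence names, and 31680 of its gene IDs, with all 10 members, matched the RefSeq rat table. The promoter windows come from RefSeq on GRCr8 and were joined by gene, not by coordinate.

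In R 4.3.3, edgeR 4.0.16 computed TMM factors, and its filterByExpr left 13909 of 34034 genes. A single quasi-likelihood fit without covariates covered all 4 groups, each pair of groups was compared, and p-values were adjusted by Benjamini-Hochberg over all tested genes. The biological coefficient of variation was 59.2%, and total counts of 4866790 to 8938227 per library set the precision for sparse genes. Intervals and the limit of 3 counts cover counting error only. No 2 libraries agreed within sampling noise (the smallest chi-square per degree of freedom over 66 pairs was 26.65). The labels do not say that the libraries are separate animals, so p-values measure only the spread between these samples. The edgeR fit was also run on simulated counts, with changes larger than the main fit gave for any member. That run therefore does not show how well changes of the members' size would be found.

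The members and gene lists were chosen with earlier results of these data known. From each pathway list, up to 3 genes per comparison with the smallest p were eligible to be named. Epgn, Nrg3, Il6 and Ctf2 were named after their values of 0 were seen. Alternatives were DESeq2 1.42.0, RLE scaling, a fit of 2 groups alone, leaving out each library in turn, the replicate number as a block, the mitochondrial share as a term in the fit, totals without mitochondrial genes, and either no filter or one asking for 5 CPM in 3 libraries.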

Additional observations from a re-analysis of the deposited data

How the results depend on the processing

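Of 655 alternative values of the 48 member fold changes, 610 kept their direction, 45 turned, and 7 passed the test where the main value did not. Of those that turned, 37 had a main log2 value under 0.5 in size. The 7 were Lifr in 3 comparisons without the low-count filter, Il6st for EEP against AS in DESeq2, and Egfr for CP against normal without the filter, in a fit of 2 groups alone and in DESeq2. Neither RLE scaling nor removal of the mitochondrial genes moved the median of all genes by more than 0.0329 on the log2 scale. The cause of the differences below was not tested.

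Counts of genes called moved as follows, from 2, 1, 1, 0, 1 and 0 for EEP against AS, CP against AS, AS against normal, EEP against CP, EEP against normal and CP against normal. Without the low-count filter they were 143, 230, 154, 5, 232 and 445, and with DESeq2 140, 132, 34, 1, 78 and 276, in that order. A fit of 2 groups alone gave 1 for EEP against AS, 3 for EEP against normal and 585 for CP against normal. The mitochondrial share as a covariate gave 2 for CP against AS and 2 for EEP against normal, and for EEP against normal the stricter filter and removal of the mitochondrial genes each gave 0. With single libraries left out the counts were 1 to 19 for EEP against AS, 1 to 5 for CP against AS, 1 to 6 for AS against normal, 0 to 0 for EEP against CP, 0 to 200 for EEP against normal and 0 to 6 for CP against normal. The 19 and the 200 came without EEP 1, each 6 without normal 2, and the 5 without AS 1. For EEP against AS the 1 came without AS 2. Without CP 1, 3 genes were called for CP against AS, without AS 1, 2 for AS against normal, and without normal 2, 4 for EEP against normal. For EEP against normal 0 were called without normal 1, normal 3, EEP 2 or EEP 3. Of the members, no library left out brought a call. Without the low-count filter 1 member was called for EEP against AS, CP against AS, AS against normal and CP against normal each, DESeq2 called 1 for EEP against AS and 1 for CP against normal, and the fit of 2 groups alone called 1 for CP against normal. In the test for any difference among the 4 groups, 2 members passed without the filter and 1 with DESeq2.

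Same-numbered libraries of different groups, with group means removed, had correlations of -0.103 to 0.39 over 18 pairs, and a library correlated best with its own number in 9 pairs. For number 1 this held in every pair of groups, with r from 0.0103 for normal with CP to 0.39 for AS with EEP. Numbers 2 and 3 were mixed, with some correlations below 0. These correlations cannot decide whether numbers mark animals, because deviations from a mean of 3 libraries are tied to each other. Whether same-numbered libraries share an animal is not given in the sources used here, so the main fit did not use the numbers as pairs. With the replicate block, 4 genes were called for EEP against normal and 11 for CP against normal, and no member. The block also turned Erbb3 for EEP against AS to -0.094 and Lif for CP against normal to 0.063.

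The mitochondrial share as a covariate turned the log2 fold changes for EEP against AS of Egfr to -0.089, Erbb2 to -0.61 and Erbb3 to -0.38. For EEP against CP it turned Lif to -0.55 and Lifr to 0.67, and for CP against normal Erbb3 to 0.81, Lif to 1.62 and Lifr to -1.31. RLE scaling, the stricter filter and DESeq2 turned Lifr for EEP against normal to 0.011, 0.063 and 0.013, and Erbb3 for CP against normal to 0.022, 0.082 and 0.027.

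With single libraries left out, the log2 fold changes that turned at least once ranged, for EEP against AS, from -0.98 to 0.55 for Hbegf, -1.07 to 1.25 for Erbb3 and -0.71 to 0.55 for Lif. For CP against AS, Hbegf ranged from -0.35 to 0.21. For AS against normal the ranges were -1.07 to 0.11 for Hbegf, -0.11 to 0.57 for Tgfa and -0.078 to 0.13 for Il6st. For EEP against CP they were -0.78 to 0.69 for Hbegf, -1.28 to 0.26 for Erbb2, -2.48 to 0.76 for Erbb3 and -0.97 to 0.42 for Lifr. For EEP against normal they were -1.66 to 0.24 for Hbegf, -1.06 to 0.49 for Erbb2 and -0.88 to 0.60 for Lifr. For CP against normal they were -0.11 to 0.54 for Erbb2, -1.43 to 0.52 for Erbb3, -0.83 to 5.10 for Lif and -0.45 to 0.72 for Lifr. Removal of the mitochondrial genes from the totals raised the group mean CPM of 9 members in all groups, without a matching shift in their fold changes. With 17 counts of Areg and 1 of Ereg, depth left these ligands without a test.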
